A study of Mus musculus with 12 samples.

Results

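In the mouse cerebellum, 26 of 7462 measured probe sets were lower at postnatal day 15 (P15) than at both day 0 (P0) and day 30 (P30), by at least 0.7 on a log2 scale at each side, a 1.62-fold drop. Among them were Bdnf, a neurotrophin that supports neuron survival and synapse growth, Npy, a peptide transmitter, Wwc1 (also KIBRA), a scaffold protein upstream in the Hippo pathway, Hspa1a, an inducible chaperone of the HSP70 family, and Ttr, the carrier of thyroid hormone in the choroid plexus. The members were chosen on the arrays themselves. A probe set had to have a mean signal of 20 or more over the 12 arrays, and its values as log2(signal + 4.6), averaged over the 4 arrays of a stage and both genotypes, had to be at least 0.7 lower at P15 than at P0 and than at P30. These stage differences are therefore given as a description, with their standard errors and no test. The 26 probe sets hold 22 genes with a single symbol, of which Wwc1 has 2 probe sets, and 3 probe sets without a symbol. They make up 0.348% of the measured probe sets, and 51 probe sets showed the opposite shape, a P15 peak of at least 0.7 above both other stages.

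The arrays compared Ts1Cje mice, which have an extra copy of part of chromosome 16 and are used to model Down syndrome, with euploid mice, and the labels name no other allele, strain or treatment. Each genotype was sampled at P0, P15 and P30 as 1 pool of RNA from 3 whole cerebella (2 in the euploid P30 pool), and each pool was hybridised to 2 arrays. The pool is the replicate, because both arrays of a pool carry the same RNA. With 1 pool per genotype and stage, p-values rest on how far the genotype difference varied between stages. They do not measure a spread between like pools. In whole tissue, fewer cells of a type and less RNA per cell cannot be told apart.

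Between P0 and P30 the cerebellum passes from a tissue rich in dividing granule cell precursors to one with a mature cortex. At P15 granule neurons are still settling, Purkinje cell dendrites are growing and myelin is forming. Neurotrophins, neuropeptides and serotonin act on the young circuit through receptors on the cell surface, while the Hippo pathway restrains growth and HSP70 chaperones refold damaged proteins. The tissue label was borne out by Purkinje and mature granule cell markers. The summed signal of 9 Purkinje cell genes was 912 to 1190 per array at P0, 7090 to 9190 at P15 and 8640 to 9230 at P30. That of 9 mature granule cell genes was 4770 to 5040, 10900 to 15300 and 12100 to 14300. The sum of 10 granule cell progenitor genes showed no fall from P0, at 531 to 693, then 794 to 1170 and 778 to 877. For 15 genes of meninges and fibroblasts it was 3510 to 5140, 3260 to 4910 and 5300 to 6910. For 9 brainstem genes it was 494 to 584, 207 to 242 and 214 to 289. The part of such tissue in the dips was not tested.

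The members were mostly dim. Their median mean signal was 33.9, against 95.6 for all measured probe sets, and 16 of 26 (61.5%) lay under 50, against 27.5% of all. Of the named genes Ttr, Prkar1b, Bdnf, Scx and Npy had a mean signal over 100. The 12 members whose 4 P15 arrays all lay below all 8 other arrays include both Wwc1 probe sets, Bdnf, 1190005I06Rik, Hspa1a, Pfn1, Npy, Perp, Slc7a3 and Col8a1, and 1.66% of all measured probe sets had that order, which overlaps with what chose the members. The median difference between the 2 arrays of a pool was 0.30 in the members and 0.21 in all probe sets, and it was smaller than the depth of the dip in 25 of 26. Depth is here the smaller of both drops.

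The upstream sequence is shown for the 4 named genes that stayed members under every left-out array or pool, other pseudocount and other scaling. Wwc1 did so by its dimmer probe set, which a mean signal filter of 50 removed. Hspa1a was no member at a drop of 1. Each line gives the 250 bases before the gene's start from RefSeq (GRCm38.p6), 5′ to 3′ in the direction of transcription, with motif letters in capitals. Positions are those of a motif's first base, counted back from the gene's start, with -1 the last base shown. For Bdnf, which has 7 promoters in the table, the one with a cyclic AMP response element core is shown.
Bdnf, chr2:109692186-109692435, plus strand: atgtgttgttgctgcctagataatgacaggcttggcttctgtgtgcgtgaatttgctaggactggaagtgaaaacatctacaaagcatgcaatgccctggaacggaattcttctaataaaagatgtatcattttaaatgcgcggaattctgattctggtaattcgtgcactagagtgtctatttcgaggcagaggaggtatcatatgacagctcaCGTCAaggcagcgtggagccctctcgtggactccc
Hspa1a, chr17:34972157-34972406, minus strand: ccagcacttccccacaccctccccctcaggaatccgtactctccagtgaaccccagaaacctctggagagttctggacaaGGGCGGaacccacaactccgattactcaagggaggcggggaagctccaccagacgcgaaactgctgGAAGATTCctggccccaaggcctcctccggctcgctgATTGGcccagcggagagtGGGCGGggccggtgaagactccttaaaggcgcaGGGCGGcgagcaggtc
Wwc1, chr11:35980528-35980777, minus strand: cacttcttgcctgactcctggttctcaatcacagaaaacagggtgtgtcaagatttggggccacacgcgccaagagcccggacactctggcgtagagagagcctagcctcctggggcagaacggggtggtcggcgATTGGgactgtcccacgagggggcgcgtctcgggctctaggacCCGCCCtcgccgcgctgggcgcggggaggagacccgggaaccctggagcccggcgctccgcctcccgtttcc
1190005I06Rik, chr8:120634391-120634640, minus strand: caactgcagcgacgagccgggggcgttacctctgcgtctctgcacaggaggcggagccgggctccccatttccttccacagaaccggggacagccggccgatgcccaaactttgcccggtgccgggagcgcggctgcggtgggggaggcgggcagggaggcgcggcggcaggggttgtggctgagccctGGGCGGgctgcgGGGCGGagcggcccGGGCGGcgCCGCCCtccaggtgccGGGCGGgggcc

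In Bdnf the capitals mark the core of a cyclic AMP response element (TGACG, here on the other strand) at -35. In Hspa1a they mark 3 GC boxes (GGGCGG) at -170, -49 and -16, a heat shock element (GAANNTTC) at -104 and a CCAAT box on the other strand at -67. In Wwc1 they mark a CCAAT box at -115 and a GC box at -72, both on the other strand, and in 1190005I06Rik 5 GC boxes between -61 and -11. Of the 22 named genes 16 were matched, with 27 promoters in all, and none was used for Htr3a, Perp, Scx, Sftpc, Slc7a3 and Ttr. Bdnf, Prkar1b and Ralgds have several promoters each, some of which overlap in Prkar1b, so the shares count promoters and not genes. All motifs were searched on both strands. A GC box was in 66.7% of the 27 promoters, against 58.6% of the 5982 promoters of measured genes and 32.7% of all 32851 in the table. The CCAAT box was in 25.9% against 34.9% and 33.8%. The response element core was in 11.1% (Bdnf, Prkar1b and Smyd5) against 26.6% and 17.8%, and the heat shock element in 7.41% (Bdnf and Hspa1a) against 4.70% and 6.69%. The E-box CACGTG was in 11.1% against 8.99% and 6.02%, the AP-1 site TGANTCA in 7.41% (Bdnf and Gstm5) against 4.68% and 6.75%, and the letters TATAAA in 0 of 27 against 6.87% and 12.4%. CACGTG and TGACG can overlap where one follows the other, as can a GC box and its neighbour. The 27 promoters had a median GC content of 59.2% against 60.0% for those of measured genes, and a median of 10 CpG against 16. A letter match describes the sequence and is not evidence of binding.

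**Figure D1:**
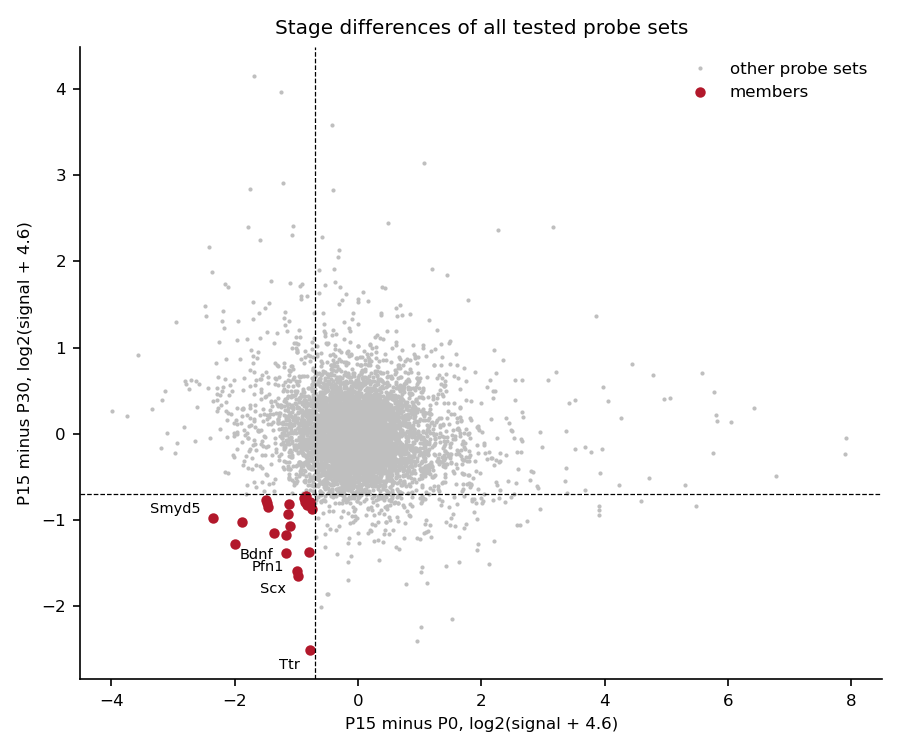
Each point is 1 of 7462 probe sets, with the difference of P15 from P0 on the x axis and from P30 on the y axis, both as log2(signal + 4.6). The 26 members (red) fill the corner below -0.7 on both axes (dashed lines), from Smyd5 at -2.35 on the x axis to Ttr at -2.51 on the y axis.

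The drop from P0 had a median of -0.98 and that from P30 of -0.86. The depth ran from 0.72 to 1.28, with a median of 0.80, and 6 members were deeper than 1. By P30 the level was within 0.25 of P0 in 15 of 26, more than 0.5 below it in 6 and more than 0.5 above it in 4. Nearest inside the threshold were Col8a1, at -0.84 from P0 and -0.72 from P30, and Ralgds, at -0.88 and -0.74. Nearest outside were Fars2, at -0.70 and -0.70, and Cd83, at -0.70 and -0.80.

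Among the secreted proteins, Bdnf was low at P15 in both genotypes. Bdnf signal in euploid pools was 222 and 162 at P0, 90.3 and 94.4 at P15, and 227 and 254 at P30. In Ts1Cje pools it was 294 and 225 at P0, 104 and 94.6 at P15, and 275 and 271 at P30. All 4 P15 arrays lay below all 8 others, in both genotypes alike, and the mean was 2.25-fold below P0 (-1.17 ± 0.16, standard error of the limma fit) and 2.60-fold below P30 (-1.38 ± 0.16).

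Npy also had its 4 lowest arrays at P15, but the genotypes differed in how low. Npy read 125 and 159.9 at P0, 44.2 and 61.8 at P15, and 139 and 104 at P30 in euploid pools. The Ts1Cje pools read 95.3 and 113 at P0, 92.7 and 94.0 at P15, and 135 and 154 at P30. Euploid P15 arrays were thus far below the other euploid arrays, while the Ts1Cje P15 arrays lay just under the lowest Ts1Cje P0 array. Over both genotypes Npy was -0.75 ± 0.26 from P0 and -0.87 ± 0.26 from P30.

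Ttr, the brightest member with a mean signal of 381, had its low at P15 against P0 in the euploid pools. Ttr read 357 and 361 at P0, 120.3 and 128 at P15, and 671 and 644 at P30 there. The Ts1Cje pools read 143 and 137 at P0, 142 and 126 at P15, and 928 and 809 at P30. In Ts1Cje, P0 and P15 overlapped, and P30 was high in both genotypes, 5.69-fold above P15 on average. Other choroid plexus markers also had more signal at P30 than at P15: Kl, a cofactor of hormone receptors, had mean signals of 2.0, 14.8 and 79.7 at the 3 stages in order, and Folr1, a folate receptor, 26.4, 13.9 and 68.3. The summed signal of the 6 choroid plexus markers on the array was 1710 to 2100 per array at P0, 1380 to 1950 at P15 and 2020 to 2480 at P30. Without Ttr it was 1350 to 1970, 1260 to 1820 and 1370 to 1660, most of it Igf2, an insulin-like growth factor, and 0 of the 6 markers were at 0 on any array. The part of choroid plexus tissue in the Ttr values was not tested.

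The other members whose proteins leave the cell were dim. Sftpc, a surfactant protein of the lung, had mean signals of 30 at P0, 16.5 at P15 and 29.5 at P30. Col8a1, a short-chain collagen, had 28.9, 14.0 and 26.4.

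Of the receptors, channels and membrane proteins, Htr3a, a subunit of the serotonin-gated ion channel, had the deepest dip. Htr3a read 27.7 and 22.6 at P0, 5.4 and 6.2 at P15, and 21.6 and 28.1 at P30 in euploid pools. The Ts1Cje pools read 19.4 and 30.3 at P0, 24.6 and 4.7 at P15, and 34.3 and 18.4 at P30. The 2 Ts1Cje P15 arrays, which carry the same RNA, thus disagreed about 1 pool, and the dip was 2.24-fold from P0 and 2.26-fold from P30 (-1.16 and -1.18, both ± 0.28).

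Marveld1, a MARVEL-domain membrane protein, had a dip in 1 genotype. Marveld1 read 63.6 and 54.5 at P0, 14.7 and 12.4 at P15, and 49.8 and 40.2 at P30 in euploid pools. In Ts1Cje it read 38.5 and 58.6 at P0, 53.3 and 55.3 at P15, and 75.4 and 53.0 at P30. The euploid P15 arrays were apart from all others, and the Ts1Cje P15 arrays lay within the range of Ts1Cje P0 and P30.

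The remaining membrane members had mean signals under 50. Slc7a3, a cationic amino acid transporter, had 45.8 at P0, 13.6 at P15 and 26.1 at P30, so that P30 stayed 0.72 log2 units below P0. Perp, a desmosome-linked membrane protein and effector of p53, had 42.1, 17.6 and 33.6. Kcnn4, a calcium-activated potassium channel, had 25.9, 12.6 and 25.1. In Perp and Slc7a3 all 4 P15 arrays lay below all others, and in Kcnn4 3 of 4 did. Car12, a membrane-bound carbonic anhydrase, had 20.4, 10.6 and 32.5.

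Among the intracellular signalling genes, Wwc1 was the only member gene with 2 member probe sets. The brighter one read 90.8 and 108 at P0, 27.1 and 28.0 at P15, and 78.7 and 50.4 at P30 in euploid pools. In Ts1Cje it read 110.0 and 97.6 at P0, 44.2 and 38.6 at P15, and 60.5 and 72.3 at P30. No P15 array reached the lowest array of another stage. The dimmer probe set had mean signals of 52.6, 10.3 and 32.9, and its difference of -2.0 ± 0.26 from P0 and -1.28 ± 0.26 from P30 compares with -1.46 ± 0.19 and -0.85 ± 0.19 for the brighter one.

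Prkar1b, a regulatory subunit of protein kinase A, read 373 and 313 at P0, 118 and 237 at P15, and 284 and 332 at P30 in euploid pools. Ts1Cje pools read 279.7 and 234 at P0, 183 and 128 at P15, and 268 and 246 at P30. Within each genotype both P15 arrays were the lowest, though the pair of euploid P15 arrays lay far apart.

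Gpsm3 and Ralgds were lowest at P15 in the Ts1Cje pools. Gpsm3, a modulator of heterotrimeric G proteins, read 30 and 27.1 at P0, 25.6 and 16.8 at P15, and 28.7 and 22.8 at P30 in euploid pools, where the stages overlapped. In Ts1Cje it read 34.2 and 33.5, then 13.7 and 11.6, then 35.6 and 41.6, with P15 clearly apart. Ralgds, an exchange factor that activates the small GTPase Ral, read 27.7 and 33.2, 14.4 and 16.9, and 20.2 and 10 in euploid pools, so that its euploid P30 was no higher than P15. In Ts1Cje Ralgds read 17.5 and 30.3, 6.8 and 13.0, and 37.1 and 37.7.

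Scx and Smyd5 had most of their P15 drop in the euploid pools. Scx, a basic helix-loop-helix factor known for tendon development, read 68.1 and 143 at P0, 7.4 and 80.3 at P15, and 183 and 249 at P30 in euploid pools. In Ts1Cje it read 158 and 108, 144 and 83.4, and 161 and 157. The dip of Scx rested on 1 euploid P15 array at 7.4, and Scx was no member without it. Smyd5, a protein with SET and MYND domains, read 69.2 and 121 at P0, 5.6 and 7.1 at P15, and 31.8 and 51.3 at P30 in euploid pools. In Ts1Cje Smyd5 read 66.7 and 70.4, 26.7 and 15, and 10.2 and 31.5, so that P15 and P30 overlapped there.

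Hspa1a was low at P15 in both genotypes. Hspa1a read 122 and 88.8 at P0, 62.2 and 49.2 at P15, and 102 and 102 at P30 in euploid pools. In Ts1Cje it read 146 and 129, 39.9 and 58.3, and 89.7 and 119. All 4 P15 arrays lay below all 8 others, with -1.14 ± 0.19 from P0 and -0.93 ± 0.19 from P30. Hspa1a has a near-identical copy, Hspa1b, with which probes can be shared. The Hspa1b probe set had mean signals of 39.7, 29.8 and 30.4, at -0.37 from P0 and -0.01 from P30.

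Pfn1, an actin-binding protein, had a P30 above its P0. Pfn1 read 26.2 and 25.9 at P0, 8.0 and 8.7 at P15, and 42.0 and 30.4 at P30 in euploid pools, and 25.2 and 41.4, 14.5 and 21.3, and 75.4 and 48.0 in Ts1Cje. Each P15 array was below every array of the other stages. Cmbl, a hydrolase, had mean signals of 43.4, 23.6 and 40.7. Its Ts1Cje P15 arrays (35.1 and 30.8) overlapped those of Ts1Cje P30 (32.3 and 34.0), while its euploid P15 arrays lay below the other euploid arrays.

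Gstm5, a mu-class glutathione transferase, read 9.3 and 55.0 at P0, 6.7 and 11.4 at P15, and 24.9 and 33.1 at P30 in euploid pools, and 13.5 and 75.7, 18.6 and 9.0, and 11.3 and 57.4 in Ts1Cje. The 2 arrays of the same RNA differed several-fold at P0 in both genotypes, and the stages overlapped in both. It was the only member whose median difference between the 2 arrays of a pool exceeded its depth. The largest difference of a single pool exceeded the depth in other members too, as in Scx (2.82 against 0.97). It did not in all, as in Bdnf (0.45 against 1.17).

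The gene 1190005I06Rik, for which no role is given here, read 131 and 156 at P0, 33.2 and 38.7 at P15, and 74.2 and 73.2 at P30 in euploid pools. In Ts1Cje it read 135 and 140.1, 32.0 and 36.1, and 79.3 and 74.6. Genotypes and arrays were nearly superimposed, and P30 regained only part of the P0 level, at -0.86 from it. Of the 3 probe sets without a symbol, the brightest had mean signals of 110.0 at P0, 41.7 at P15 and 94.7 at P30. It is singled out after its values were seen, as the only one of the 3 that stayed a member under all the left-out arrays and pools and other scalings above.

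**Figure D2:**
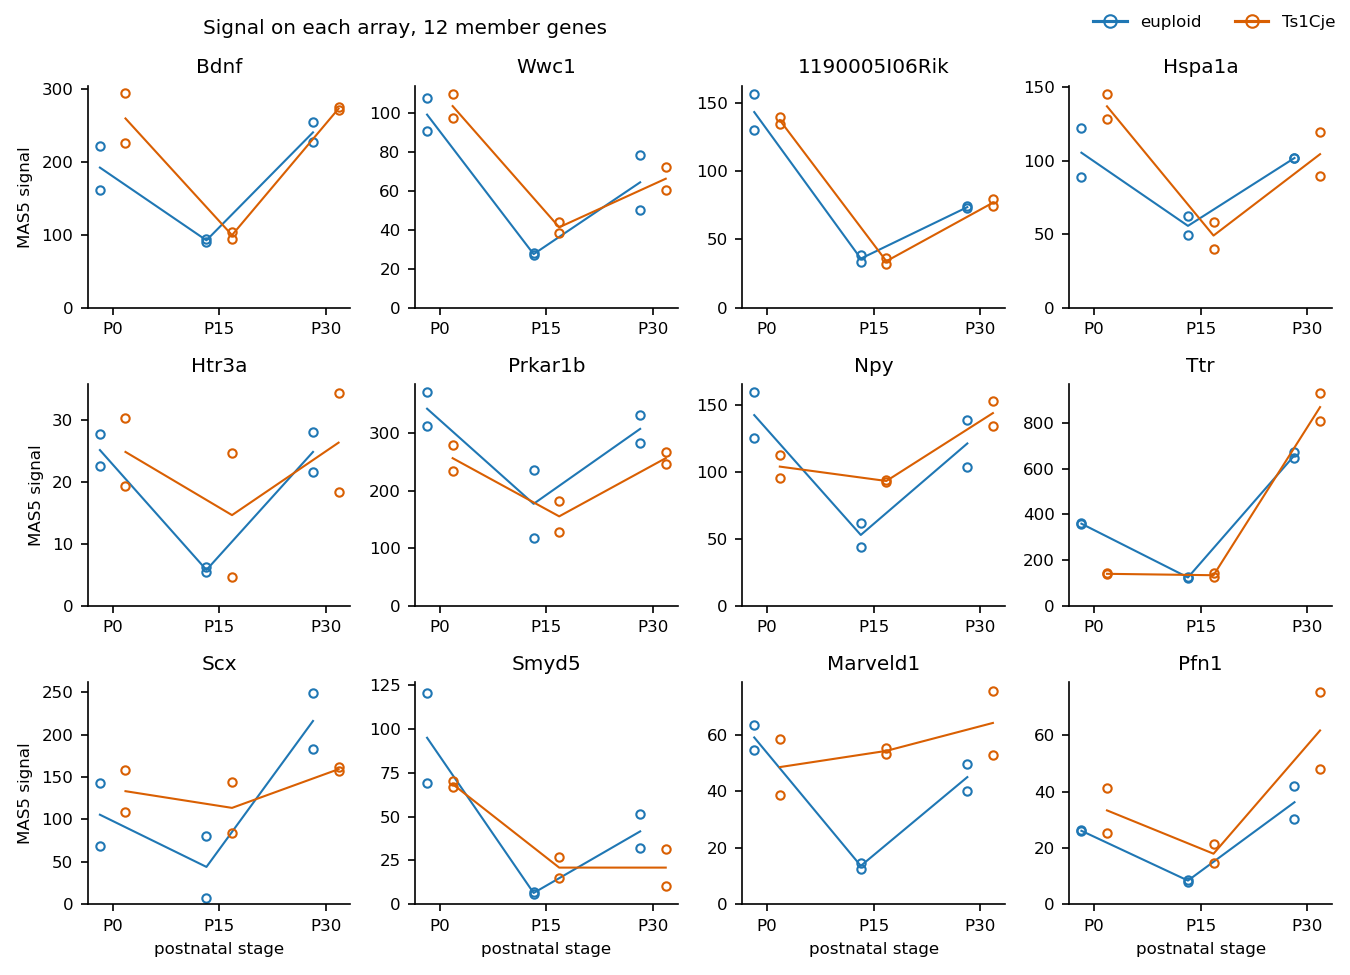
MAS5 signal (linear axis from 0) against postnatal stage for 12 member genes, with open points for the 2 arrays of each pool and lines through the pool means, euploid in blue and Ts1Cje in orange. Bdnf, Wwc1, 1190005I06Rik and Hspa1a are low at P15 in both genotypes, while Marveld1 and Ttr overlap between P0 and P15 in Ts1Cje.

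Some genes have further probe sets on the array, which the rule did not pick. Of 9 such probe sets for 5 genes, 6 were bright enough to be measured, and 3 of these 6 were lower at P15 than at both other stages at any size, a state found in 28.4% of all measured probe sets. The further Prkar1b probe set, with mean signals of 527, 377 and 592, had the same order at -0.47 from P0 and -0.65 from P30. For Gstm5, the further probe sets were much brighter than the member (mean signals of 266 and 1310 against 27.2) and lay at -0.28 and 0.07, and at -0.13 and -0.05. The further Ralgds probe set, with a mean signal of 364 against 22.1, lay at -0.16 from P0 and 0.13 from P30. The Smyd5 further sets lay at -1.0 and -0.51, and at 0.09 and -0.34. The member probe sets of Gstm5, Ralgds and Gpsm3 carry the suffixes that the array maker uses for sets that broke a design rule or match several transcripts. The bright probe sets of Gstm5 and Ralgds thus did not show the drop of 0.7 that the dim ones did.

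**Figure D3:**
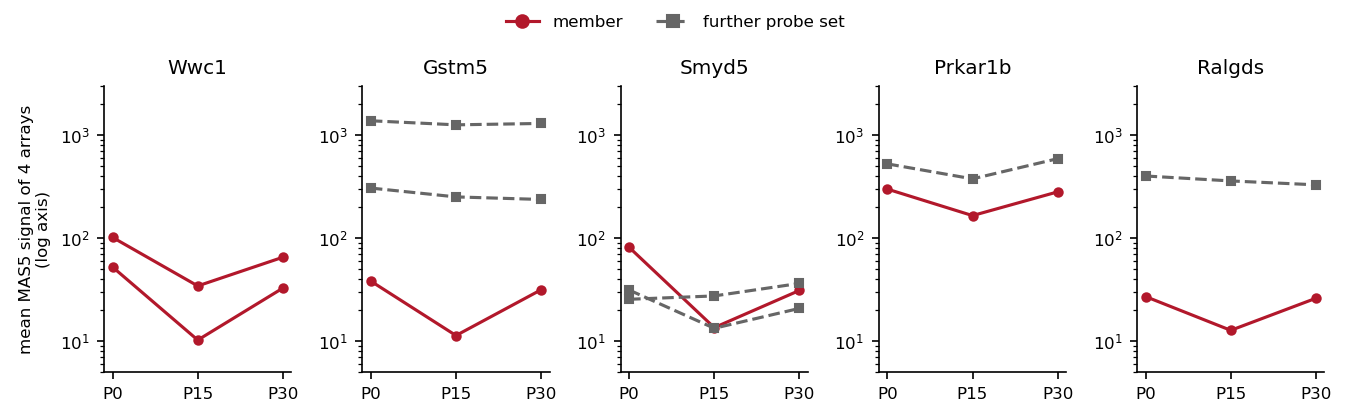
Mean MAS5 signal of 4 arrays (log axis) at each stage for the member probe sets (red circles) and the further measured probe sets (grey squares, dashed) of Wwc1, Gstm5, Smyd5, Prkar1b and Ralgds. Both Wwc1 sets are members, the Prkar1b sets run in parallel, and the brighter Gstm5 and Ralgds sets are nearly flat.

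The difference between genotypes over the 3 stages does not depend on the stage means that chose the members, and it was tested with limma. At an adjusted p under 0.05 it called 0 of the 7462 probe sets (0.0%) and 0 members. At an unadjusted p under 0.05, 218 probe sets (2.92%) and 2 members passed, Pfn1 and an unnamed probe set. Ts1Cje minus euploid was 0.58 ± 0.19 for Pfn1, 0.63 ± 0.32 for Marveld1 and 0.24 ± 0.13 for Bdnf. It was -0.26 ± 0.12 for Prkar1b, -0.28 ± 0.28 for Ttr and -0.14 ± 0.20 for Kcnn4. Without either P0 pool the Ttr value was 0.25. All members had an adjusted p of 1 by limma with Benjamini-Hochberg adjustment. The members' median was 0.128 against -0.001 for all probe sets, with 18 of 26 (69.2%) above 0 against 49.6%. None of the 22 genes lies on the trisomic segment of chromosome 16. Col8a1 is on that chromosome outside the segment, and the 22 genes are spread over 16 chromosomes.

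The values of each genotype are part of what chose the members, so their depths are a description. Depth had a median of 1.04 in euploid pools (range -0.09 to 2.05) and of 0.66 in Ts1Cje pools (range -0.17 to 1.36), which are 2.06-fold and 1.57-fold. It reached 0.7 in 23 of 26 in euploid pools and in 12 of 26 in Ts1Cje pools, against 1.59% and 0.724% of all probe sets, and in 9 it did so in both, against 0.121% of all. A probe set with that depth in both genotypes meets the rule by construction, so nothing is read from these shares. These 9 were Bdnf, the dimmer Wwc1 probe set, 1190005I06Rik, Hspa1a, Htr3a, Gstm5, Pfn1, Prkar1b and Kcnn4. Both P15 arrays lay below all 4 other arrays of their genotype in 21 members in euploid pools, against 13.1% of all probe sets, and in 17 in Ts1Cje pools, against 8.51%. By that order some members, such as Marveld1 and Smyd5, were lowest at P15 in euploid pools alone. The rule asks for a dip in the mean of both genotypes and not in each, and these orders are part of what chose the members.

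**Figure D4:**
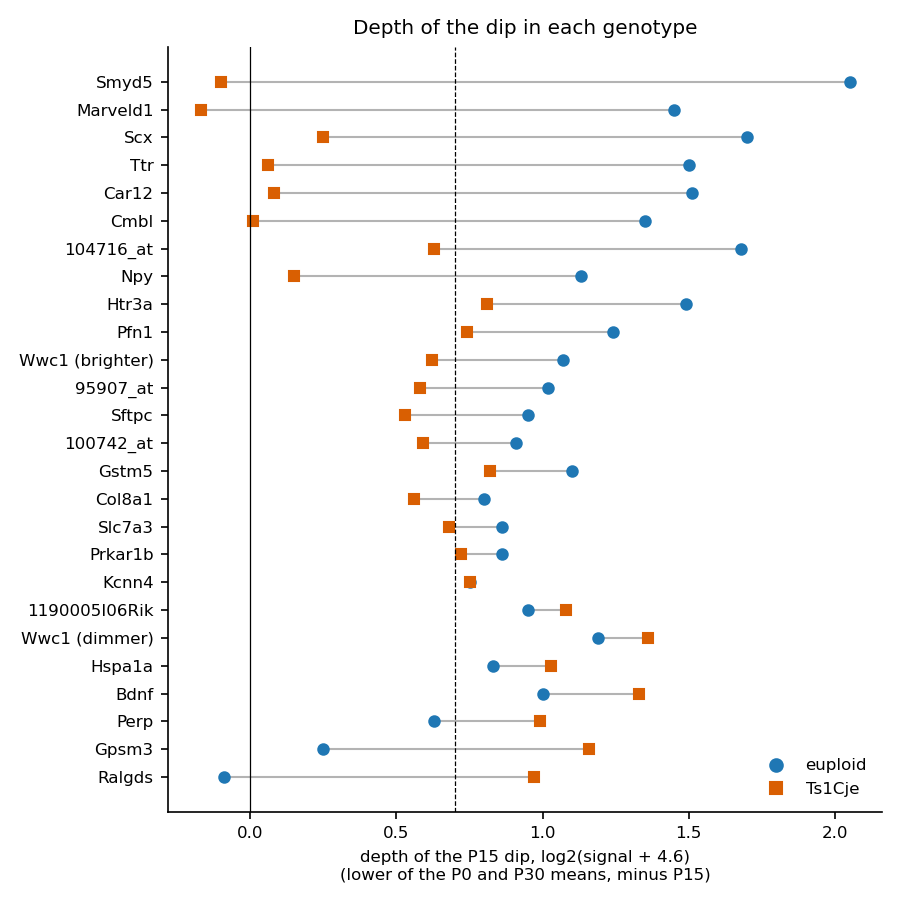
Depth of the P15 dip for each of the 26 members, the lower of the P0 and P30 means minus P15 as log2(signal + 4.6), in euploid pools (blue circles) and Ts1Cje pools (orange squares), with the dashed line at 0.7. Smyd5 has the widest gap, 2.05 against -0.10, and Gpsm3 and Ralgds lie the other way round.

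Whether the dip differed between genotypes was tested with limma as the genotype difference of P15 minus the mean of P0 and P30, where a positive value is a shallower dip in Ts1Cje. It called 0 of the 7462 probe sets (0.0%) at an adjusted p under 0.05, while 689 (9.23%) and 6 members passed an unadjusted p under 0.05. Scx had the lowest adjusted p of the members, 0.116, with 1.85 ± 0.35. Smyd5 followed with 1.86 ± 0.42 (adjusted p = 0.169) and Marveld1 with 1.61 ± 0.40 (adjusted p = 0.206). On the deeper side were Gpsm3 at -0.93 ± 0.43 (adjusted p = 0.548), Ralgds at -0.92 ± 0.60 (adjusted p = 0.706) and Hspa1a at -0.38 ± 0.30 (adjusted p = 0.770). The members' median was 0.303 against 0.002 for all probe sets, and 18 of 26 (69.2%) were above 0 against 50.2%. All members were read from the same 6 pools, so they are not independent and this tilt was not tested. Single arrays moved these calls. Scx was called without the first euploid P0 array (with Smyd5), the second euploid P15 array, the second Ts1Cje P15 array or the second Ts1Cje P30 array (with Smyd5 and Marveld1), and its adjusted p ran from 4.97e-05 to 0.675 over all settings tried. Without the first euploid P15 array, at 7.4, the Scx difference was 0.44. The arrays of a pool were averaged first, so the ± 0.35 of Scx does not hold their disagreement. The fit has 1 residual degree of freedom, the change of the genotype difference from P0 to P30. For the 9 members with a dip of 0.7 in both genotypes the difference ran from -0.46 ± 0.45 (the dimmer Wwc1 probe set) to 0.67 ± 0.49 (Htr3a), with adjusted p from 0.748 to 0.997. Bdnf lay at -0.20 ± 0.27 and 1190005I06Rik at -0.07 ± 0.30.

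Within a stage there is 1 pool per genotype, so only values are given. At P15, 8 of 26 members (30.8%) were at least 1.5-fold higher in Ts1Cje with no overlap between the arrays, against 3.20% of all probe sets, and 0 were lower, against 1.96%. All 8 had a depth of at least 0.7 in euploid pools and 7 of them had less in Ts1Cje pools. The same P15 arrays are part of what chose the members, so nothing is read from their share. The 8 were Scx, Marveld1, Smyd5, Cmbl, Car12, Pfn1, Npy and the brightest probe set without a symbol. At P0, 0 were higher (3.56% of all) and 2 lower (3.86%), Ttr and Car12. At P30, Pfn1 and Ralgds were higher (2.28%) and Smyd5 and an unnamed probe set lower (2.13%). In 9 members (34.6%) the arrays of the genotypes were apart in opposite directions at different stages, against 24.1% of all probe sets. The median difference at P15 was 0.19 in the members against 0.01 in all probe sets, with 0.05 against 0.02 at P0 and 0.03 against 0.00 at P30.

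The Ts1Cje P15 pool differed from other pools in other measures too. Xist, transcribed from the inactive X chromosome of females, read 105.6 and 77.6 on its arrays and 1.4 to 6.7 on the other 10. Of 3 Y-linked genes, Kdm5d read 0.6 and 1.9 there and 3.8 to 10.8 elsewhere, Eif2s3y 45.3 and 27.5 against 38.7 to 74.3, and Uty 11.5 and 16.1 against 7.6 to 23.4. Only Kdm5d was below the other arrays on both. At P15 the summed signal of the Purkinje cell genes was 7090 to 7640 in Ts1Cje against 9160 to 9190 in euploid arrays, and that of the mature granule cell genes 10900 to 12500 against 13200 to 15300. That of 12 microglia genes was 858 to 880 against 669 to 681, within the 600 to 1030 of all arrays. The sum of 10 blood genes was lower in Ts1Cje at every stage, at 3350 to 3600 against 4740 to 5160 at P0, 3140 to 3620 against 6970 to 8660 at P15, and 3360 to 3790 against 5700 to 6120 at P30. None of these markers was at 0 on any array. The part of these measures in the P15 differences was not tested. With 1 pool per genotype and stage, it cannot be told apart from that of genotype. Slc7a3 is the only member gene on the X chromosome, with a genotype difference of 0.10 ± 0.18.

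**Figure D5:**
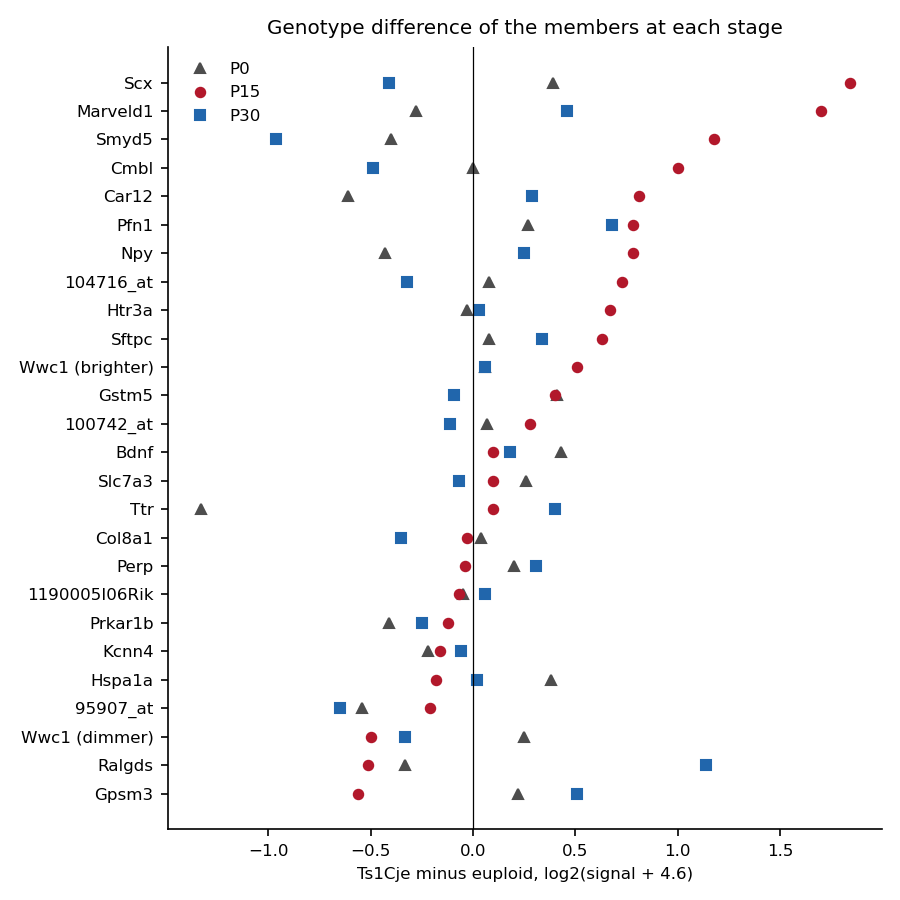
Ts1Cje minus euploid as log2(signal + 4.6) for each of the 26 members at P0 (triangles), P15 (circles) and P30 (squares), ordered by the P15 value. At P15 Scx reaches 1.84, Marveld1 1.70 and Smyd5 1.18, and at P0 Ttr lies lowest at -1.33.

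Few members were in the gene lists set beside them. Of 38 lists of cell type markers, pathways and complexes, 34 held no member and 4 held 1 each. In the heat shock and chaperone list, Hspa1a was the only member of 18 measured genes, of which 4 were lower at P15 than at both other stages, against 28.4% of all probe sets, and 6 were higher. Its relatives Dnajb1, a cochaperone, at -0.65 and -0.09, and Hspa8, the constitutive HSP70, at 0.01 and 0.08, had no such dip. Among 15 measured neuropeptide genes, 6 were lower at P15 than at both other stages. Npy was the only member, and Pcsk1n, an inhibitor of a prohormone convertase, came close with mean signals of 662, 432 and 685 (-0.61 and -0.66). Of 7 measured GABA interneuron genes 4 were lower at P15 than at both, with Npy the only member, and of 4 measured choroid plexus genes 2 were, with Ttr the only member.

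Of the quality measures of the arrays, those of RNA integrity overlapped between stages. Median signal per array was 30.4 to 36.2, and the median correlation of arrays was 0.972 within a pool, 0.967 within a stage across genotypes and 0.864 between stages. The ratio of 3′ to 5′ signal of the GAPDH controls, a measure of RNA integrity, was 0.841 to 1.07 at P0, 0.877 to 0.975 at P15 and 0.883 to 0.957 at P30, and that of actin 1.13 to 1.31, 1.26 to 1.43 and 1.24 to 1.67. Centring each array on its median instead of the deposited scaling moved P15 minus P30 by 0.106 and P15 minus P0 by 0.069, which left 15 of the 26 members inside the rule. Without the first Ts1Cje P15 array the rule found 48 members, and without the whole pool 92. Without the euploid P15 pool it found 43 and without the euploid P30 pool 42. A set of 6 of the 26 stayed members with any single array or pool left out: Wwc1 by its dimmer probe set, Bdnf, Htr3a, 1190005I06Rik, Hspa1a and the brightest probe set without a symbol.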

How the data were processed

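RNA pools from mouse cerebellum were hybridised to 12 Affymetrix arrays of 12488 probe sets each. The deposited values are linear signal intensities that the authors computed with MAS5, per the submitters' processing notes, with version and settings not given in the sources used here. The trimmed means of the arrays (2% at each end) were 100.05 to 100.06, so the deposited intensities had been scaled to a common level, and no further scaling was applied. Dropping 66 controls and probe sets with a mean signal below 20 left 7462. Values were taken as log2(signal + 4.6), with the pseudocount near the 20th percentile of the deposited intensities, so folds of dim genes are understated. The number of arrays limits the precision, and detection calls were not used.

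Gene symbols came from the platform annotation: of 12422 probe sets 10833 have 1 symbol, 396 several and 1193 none, and 10817 matched a RefSeq table (GRCm38.p6), with 0 symbols changed. Promoters came from RefSeq for the same build.

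Both arrays of a pool were averaged. limma 3.58.1 in R 4.3.3 (lmFit, eBayes with a trend) fitted genotype and stage over 6 pools, with 2 residual degrees of freedom and a prior of 6.4, and in another model genotype, stage and their product at P15, with 1 residual degree of freedom and a prior of 11. Tests were two-sided, with Benjamini-Hochberg adjustment over all 7462. Both models were run on simulated pools with normal noise and probe sets changed 1.5-fold, 2-fold and 4-fold. The first called 58.2%, 95.5% and 100% of those changed in genotype, with 13 false calls. The second called 4.48%, 22.4% and 97.0% of those changed in the dip, with 16 false calls. In the real data the first model called 0 of the 23 measured genes of the trisomic segment, whose median genotype difference was 0.488. The simulated shares are therefore not taken as the power on the real arrays. The members and gene lists were chosen with earlier results of these data known. All 22 member genes with 1 symbol are named, by depth of the dip, list membership, smallest p for genotype and dip, nearness to the threshold, further probe sets and brightness. Values of every array are given for 15 genes. Other pseudocounts, filters, scalings, thresholds, genotypes alone, left-out arrays and pools, a variance prior without trend and a block by hybridisation number were tried. Plots used matplotlib 3.10.9 under python 3.11.15.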

Additional observations from a re-analysis of the deposited data

Results flagged for a closer look

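In 9 members the difference between Ts1Cje and euploid pools (Ts1Cje minus euploid, log2(signal + 4.6)) pointed one way at one stage and the other way at another, with no overlap of the arrays at either. That is 34.6% of the members, against 24.1% of all 7462 probe sets. Each genotype had 1 pool per stage, and the same arrays are part of what chose the members, so nothing is read from that share. The turn between those stages was itself not tested, while the limma test of the dip, which sets P15 against the mean of both other stages, called none of these genes at an adjusted p under 0.05 (lowest 0.116, for Scx). In the order P0, P15, P30, Scx was at 0.39, 1.84 and -0.41, and Smyd5 at -0.40, 1.18 and -0.96. Cmbl was at 0.0, 1.0 and -0.49, and the brightest probe set without a symbol at 0.08, 0.73 and -0.32. Npy, at -0.43, 0.78 and 0.25, Car12, at -0.61, 0.81 and 0.29, and Ttr, at -1.33, 0.10 and 0.40, were lower in Ts1Cje at P0 and higher at P15 or P30. Gpsm3, at 0.22, -0.56 and 0.51, and Ralgds, at -0.33, -0.51 and 1.14, were higher in Ts1Cje at P30 and lower at P15.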

How the results depend on the processing

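The number of members, 26, was 46 with a pseudocount of 1 and 9 with 16, 76 without the filter and 10 with a mean signal of 50 or more. It was 17 after quantile normalization (15 shared) and 15 after median centring (15 shared), 119 on euploid arrays alone (23 shared) and 54 on Ts1Cje arrays alone (12 shared), and 6 and 115 with a drop of 1 and of 0.5. It ranged from 25 to 48 with an array left out (17 to 26 shared) and from 27 to 92 with a pool left out (16 to 25 shared). Of 660 other values of a member's depth, 4 had the opposite sign: Marveld1 at -0.03 without the euploid P15 pool (-0.03 to 1.67 over left-out arrays and pools) and -0.17 in Ts1Cje alone, Smyd5 at -0.10 in Ts1Cje alone and Ralgds at -0.09 in euploid alone. The genotype difference called 0 to 6 probe sets with an array or pool left out and 6 with the hybridisation number as a replicate block, and 0 members in every setting run. Its sign turned for Ttr (0.25 without either P0 pool, range -0.61 to 0.25 with an array or pool left out) and Kcnn4 (0.02 without the first Ts1Cje P0 array, range -0.31 to 0.02). The genotype difference in the dip called 14 probe sets with a pseudocount of 1, 28 with 16 and 2 without the filter, and 0 to 83 with an array left out, most without the second Ts1Cje P30 array (83) and the first euploid P0 array (48). Members called were 1 with either pseudocount (Scx), 0 to 3 with an array left out and 3 of the 291 called with the replicate block (Smyd5, Marveld1 and Cmbl). Same-numbered arrays of different pools deviated together (r over 0.1) in all 6 pairs among the P0 and P15 pools (0.151 to 0.353) and in 1 of 9 pairs with a P30 pool (-0.124 to 0.142), so the numbers were not taken to pair all pools. The block fit, with a correlation of -0.16 between arrays of a pool for the dip, counts them nearly as separate samples. Over all settings Scx lay at 0.44 to 3.26 (called in 6 of 21), Smyd5 at 1.22 to 2.29 (3 of 20) and Marveld1 at 1.18 to 1.84 (2 of 20). Leaving out a pool was not run for the dip difference, which then has no residual degree of freedom. For the other changes the cause was not tested. Low signal over background limits the 16 members under 50, whose arrays of a pool differed by a median of 0.37.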

Other observations

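Relatives of the members are described here in families listed after the members were known. Values are differences of P15 from the earlier and then the later stage, with no test, and 28.4% of all measured probe sets were lower at P15 than at both. Of 9 measured Hippo pathway genes 3 were lower than at both, Wwc1, its paralog Wwc2 (-0.51 and -0.44) and the coactivator Yap1 (-0.41 and -0.57), while the kinase Lats2 was higher than at P0 (1.80 and -0.31). Of 9 protein kinase A genes 6 were, the catalytic subunit Prkacb (-0.61 and -0.13) and the anchor Akap12 (-0.96 and -0.33) among them, with the ubiquitous regulatory subunit Prkar1a at -0.01 and -0.14. Of 6 serotonin receptor genes 4 were, with Htr7 at -0.80 and -0.35. Htr1a, too dim to be measured, was at -0.86 and -1.03. Of 4 mu-class glutathione transferases 3 were, and the bright Gstm1 had mean signals of 1220, 823 and 1550 in order of stage (-0.57 and -0.92).

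Further families held relatives of both kinds. Of 9 genes of actin turnover only Pfn1 was lower at P15 than at both, against -0.74 and 0.36 for its paralog Pfn2, a profilin of neurons, and -0.42 and 0.48 for Actg1, a cytoplasmic actin. Of 5 carbonic anhydrases only Car12 was, with Car2 at 1.70 and -0.64. Of 3 measured calcium-activated potassium channel genes 2 were, Kcnn4 and Kcnn1, its relative in neurons, at -1.12 and -0.53. For neuropeptide Y the receptor gene Npy2r was at -0.44 and -0.31, and for Bdnf the related receptor gene Ntrk3 was at 0.23 and -0.32. Rbp4, the retinol carrier that binds the Ttr protein, was at -0.05 and -1.0.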
